A study of Mus musculus with 12 samples.

Results

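The Lgr receptors and the R-spondins are 7 genes, 3 receptors (Lgr4, Lgr5 and Lgr6) and 4 secreted ligands (Rspo1, Rspo2, Rspo3 and Rspo4). They were taken by gene symbol from a table of 27785 genes that RNA sequencing covered in 12 mouse rectum libraries, and each had 1 row. Of the 7, 6 reached 1 FPKM (fragments scaled to transcript length and to library size) in at least 2 libraries and were tested, and Rspo2 did not. Rspo4 reached it in the Lgr5-Cdx2-Apc libraries alone, and Lgr6 in these and 1 other library. Rspo1 reached it only in Lgr5-Cdx2-Apc replicate 2 and Cdx2-Apc replicate 3. The Lgr5-Cdx2-Apc group held 2 libraries with the genotype Lgr5creER;CDX2creER;APC flox, in which 2 tamoxifen-inducible Cre recombinases act on floxed Apc. The Lgr5-Apc group held 4 libraries with Lgr5creER;APC flox, and the Cdx2-Apc group 3 with CDX2creER;APC flox. The control group held 3 libraries titled WT, whose genotype entry nevertheless names CDX2creER and APC flox with WT in brackets, so which alleles they carried is not settled by the labels. A protocol of tamoxifen at 25 mg/kg on 5 days stands on all 12 samples, while the entry for tamoxifen as a treatment is missing from the controls, so each comparison with control may hold the drug as well as the genotype. Age, sex, how the Cre drivers were built, and whether any samples share an animal are not given, so a p-value here reflects the spread among these samples, which may be technical.

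R-spondins are secreted proteins that bind Lgr receptors on the cell surface. The bound pair draws away Znrf3 and Rnf43, membrane ubiquitin ligases that remove Frizzled receptors, so that a cell responds more strongly to Wnt. Apc acts further down the same pathway, in the complex that destroys beta-catenin. In the intestine Lgr5 marks the stem cells of the crypt base and is itself a Wnt target, Lgr4 is made more widely along the crypt, and Lgr6 is best known from stem cells of the hair follicle and epidermis.

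The libraries differed in tissue make-up within and between groups, and marker lists are given here as the mean log2(FPKM + 1) of their genes. Markers of squamous epithelium, the lining of skin and anal canal, scored 7.60 and 9.03 in the Lgr5-Cdx2-Apc libraries, 0.79 to 9.83 in Lgr5-Apc, 0.94 to 4.91 in Cdx2-Apc and 2.13 to 7.04 in control. Columnar epithelium markers, which define the rectal lining, scored 6.33 and 3.84 in Lgr5-Cdx2-Apc, 6.35 in Lgr5-Apc replicate 2, and 8.03 to 8.77 in the other 9 libraries. All 14 hair follicle markers found were at or above 1 FPKM in each Lgr5-Cdx2-Apc library, against 0 to 7 in Lgr5-Apc, 0 or 1 in Cdx2-Apc and 1 to 3 in control. Their defining members Krt25 and Krt27, keratins of the hair root sheath, were 18.6 and 17.9 FPKM in Lgr5-Cdx2-Apc replicate 1 and 5.49 and 6.73 FPKM in replicate 2, and at most 0.243 FPKM elsewhere. Smooth muscle markers scored 2.39 to 3.07 in Lgr5-Cdx2-Apc and 5.68 to 8.12 in the other groups. Skeletal muscle markers scored 4.37 and 4.63 in Lgr5-Cdx2-Apc, 4.60 in Lgr5-Apc replicate 2 and 0.41 to 1.85 in the 9 others, and 7 of the 8 tested were higher in Lgr5-Cdx2-Apc than in control. The Cdx2-Apc libraries had 0.702 to 1.12 FPKM of Xist, which silences 1 X chromosome of female cells, and 24.7 to 28.5 FPKM of the Y-linked Eif2s3y, against 61.1 FPKM or more of Xist and 3.06 FPKM or less of Eif2s3y in the other 9, so in comparisons with Cdx2-Apc genotype and sex cannot be told apart. Among these 9, control replicate 1 alone stood out, with 3.06 FPKM of Eif2s3y and 1.815 FPKM of the Y-linked Ddx3y beside 153.6 FPKM of Xist. The rest had at most 0.198 FPKM of Eif2s3y. Why control replicate 1 holds both was not tested. Total FPKM ran from 451297 to 728462, depth in reads is unknown, and Apc was 13.5 to 18.8 FPKM, a gene-level value that is no check on the deletion of floxed exons. In these bulk samples fewer cells of a type and less RNA per cell cannot be told apart.

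Lgr4 was the most abundant receptor in all 12 libraries on the FPKM scale and was lowest in rectum with both drivers. It lies on chromosome 2, from 109917647 to 110014257 on the plus strand (GRCm38, ENSMUSG00000050199.13). Lgr4 was 47.7 and 43.9 FPKM in Lgr5-Cdx2-Apc, 102, 71.8, 118.7 and 64.7 FPKM in Lgr5-Apc, 88.0, 115.9 and 118.4 FPKM in Cdx2-Apc, and 110.5, 109.5 and 126.2 FPKM in control. Both Lgr5-Cdx2-Apc libraries were below the other 10, and the other groups overlapped one another. Lgr4 averaged 45.8 ± 2.69 FPKM in Lgr5-Cdx2-Apc (SD, n = 2) and 115.4 ± 9.39 FPKM in control (SD, n = 3), so the Lgr5-Cdx2-Apc mean was 39.7% of the control mean. It fell by 1.31 ± 0.26 on the log2(FPKM + 1) scale against control (SE; limma with Benjamini-Hochberg adjustment, adjusted p = 0.0113), by 0.91 ± 0.25 against Lgr5-Apc (adjusted p = 0.0471) and by 1.20 ± 0.26 against Cdx2-Apc (adjusted p = 0.0122). The call against Lgr5-Apc held in 6 of 24 alternative fits. Without Lgr5-Cdx2-Apc replicate 2 the difference from control was about as large at -1.25 ± 0.34, but none of these differences passed (adjusted p = 0.099 against control). That arm then holds 1 library, which is assumed to vary like the other groups, here and wherever an Lgr5-Cdx2-Apc library is left out. With Lgr5-Apc the mean was 89.3 ± 25.4 FPKM (SD, n = 4), and the difference of -0.41 ± 0.22 against control did not pass (adjusted p = 0.499).

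Lgr4 was low where columnar markers were low, but not in step with them. Lgr5-Cdx2-Apc replicate 1 and Lgr5-Apc replicate 2 scored 6.33 and 6.35 for columnar markers, with 47.7 and 71.8 FPKM of Lgr4. Set against Epcam, a surface protein of columnar epithelium, Lgr4 came to 27.3% and 67.1% in Lgr5-Cdx2-Apc and 17.8% to 26.65% in control. It came to 10.15% to 46.55% in Lgr5-Apc and 17.06% to 18.2% in Cdx2-Apc. Epcam itself was lower in Lgr5-Cdx2-Apc than in control, which raises the ratio. Keratins Krt8 and Krt18, which define columnar epithelium, were 166.7 and 34.0 FPKM in Lgr5-Cdx2-Apc replicate 1 and 20.6 and 19.1 FPKM in replicate 2, against 206.3 and 33.3 FPKM in Lgr5-Apc replicate 2 and at least 670.2 and 139.7 FPKM in the other 9 libraries. With the columnar score as a covariate, the Lgr4 difference between Lgr5-Cdx2-Apc and control was -0.94 ± 0.42 and did not pass (adjusted p = 0.577); in that fit 0.369% of all genes were called. With the squamous score in its place the Lgr4 difference was -1.45 ± 0.29 and passed (adjusted p = 0.0205). The columnar pattern had an exception in Lgr5-Apc replicate 4, with 64.7 FPKM of Lgr4 at a columnar score of 8.59. Smooth muscle markers scored 3.07 and 2.39 in Lgr5-Cdx2-Apc, 5.68 in Lgr5-Apc replicate 2 and 5.87 in Lgr5-Apc replicate 4. These libraries had the least Lgr4, and the others scored 6.67 to 8.12 for smooth muscle. The part of other tissues in the Lgr4 difference was not tested. Over the 12 libraries the genes closest to Lgr4 in pattern were Met, the hepatocyte growth factor receptor (Pearson r = 0.991 of log2(FPKM + 1), n = 12 libraries), Ccdc32 (r = 0.983) and Npc2, a lysosomal cholesterol carrier (r = 0.978). These coefficients describe libraries that share their tissue make-up and carry no test.

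Lgr5, the crypt stem cell receptor and the gene after which one of the drivers is named, passed in none of the comparisons. The gene lies on chromosome 10, from 115450311 to 115587780 on the minus strand (ENSMUSG00000020140.15). Lgr5 was 4.48 and 3.77 FPKM in Lgr5-Cdx2-Apc, 1.75, 1.30, 1.40 and 4.72 FPKM in Lgr5-Apc, 2.81, 3.77 and 4.16 FPKM in Cdx2-Apc, and 3.599, 5.40 and 5.95 FPKM in control. The 3 lowest values of all 12 libraries were Lgr5-Apc replicates 1 to 3, and replicate 4 of the same group lay within the control range. The group means were 4.12 ± 0.50 FPKM in Lgr5-Cdx2-Apc (SD, n = 2), 2.29 ± 1.63 FPKM in Lgr5-Apc (SD, n = 4), 3.58 ± 0.698 FPKM in Cdx2-Apc (SD, n = 3) and 4.98 ± 1.23 FPKM in control (SD, n = 3). By mean the order was control, Lgr5-Cdx2-Apc, Cdx2-Apc and Lgr5-Apc, and each neighbouring pair overlapped. The log2 difference between Lgr5-Apc and control was -0.95 ± 0.31 (SE; unadjusted p = 0.0114, limma adjusted p = 0.41), and without Lgr5-Apc replicate 4 it was -1.25 ± 0.20 (adjusted p = 0.241). The difference between Cdx2-Apc and control was -0.38 ± 0.33 (adjusted p = 1), and that between Lgr5-Cdx2-Apc and control -0.21 ± 0.37 (adjusted p = 0.714), with the sign turned by the squamous covariate (0.27) and the columnar covariate (0.50). Against Lgr5-Apc, Lgr5-Cdx2-Apc differed by 0.74 ± 0.35 (adjusted p = 0.186). That difference passed in 3 of 24 alternative fits, among them the one without Lgr5-Apc replicate 4 (1.05, adjusted p = 0.0299). Whether the Lgr5creER allele also alters the Lgr5 gene that carries it is not given, so in the Lgr5-Apc and Lgr5-Cdx2-Apc groups that allele and the loss of Apc cannot be told apart.

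In the Lgr5-Cdx2-Apc libraries, where columnar markers were low, Lgr5 was within the control range. Lgr5 came to 2.57% and 5.76% of the FPKM of Epcam, a surface protein of columnar epithelium, in the Lgr5-Cdx2-Apc libraries, against 0.244% to 0.842% in Lgr5-Apc, 0.544% to 0.640% in Cdx2-Apc and 0.839% to 0.949% in control. Epcam was 174.5 and 65.4 FPKM in Lgr5-Cdx2-Apc and 414.6 to 709 FPKM in control, so the higher ratio rests on lower Epcam. Which cells of these libraries, hair follicle cells among them, made Lgr5 was not tested. The 12 crypt stem cell markers other than Lgr5 scored 4.21 and 4.10 in Lgr5-Cdx2-Apc, 3.56 to 3.95 in Lgr5-Apc, 3.76 to 3.95 in Cdx2-Apc and 3.60 to 3.91 in control. Of the 11 tested, 2 were higher in Lgr5-Cdx2-Apc than in control (Axin2 and Tnfrsf19) and 1 lower (Ephb2), 27.3% against 19.1% of all genes, with a median log2 difference of 0.03 against 0.07 over all genes. Of the defining members, Ascl2, a stem cell transcription factor, was 5.74 and 3.34 FPKM in Lgr5-Cdx2-Apc and 2.94 to 5.84 FPKM in control. Smoc2, a secreted matrix protein of the crypt base, was 46.6 and 37.2 FPKM in Lgr5-Cdx2-Apc and 14.3 to 21.1 FPKM in control. Slc12a2, an ion cotransporter, was 31.98 and 67.5 FPKM in Lgr5-Cdx2-Apc and 65.3 to 102.6 FPKM in control. The genes nearest to Lgr5 in pattern were Adam23 (r = 0.902), Armcx3 (r = 0.890) and Oat, a mitochondrial aminotransferase (r = 0.879, n = 12 libraries each).

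Lgr6 rose in rectum with both drivers to a level above every other library. It lies on chromosome 1, from 134983301 to 135105276 on the minus strand (ENSMUSG00000042793.13). Lgr6 was 16.3 and 23.9 FPKM in Lgr5-Cdx2-Apc, 0.0752, 4.80, 0.966 and 0.0401 FPKM in Lgr5-Apc, 0.0277, 0.117 and 0.750 FPKM in Cdx2-Apc, and 0.687, 0.0661 and 0.0306 FPKM in control. The next highest library after the Lgr5-Cdx2-Apc pair was Lgr5-Apc replicate 2, and the 3 other groups overlapped. Lgr6 averaged 20.1 ± 5.38 FPKM in Lgr5-Cdx2-Apc (SD, n = 2) and 0.261 ± 0.369 FPKM in control (SD, n = 3), a control mean that rests mostly on replicate 1. It rose by 4.08 ± 0.64 on the log2(FPKM + 1) scale against control (SE; limma adjusted p = 0.00429), by 3.46 ± 0.61 against Lgr5-Apc (adjusted p = 0.00936) and by 4.04 ± 0.64 against Cdx2-Apc (adjusted p = 0.00419). That scale understates changes of low genes. Since the filter admitted Lgr6 through the libraries where it was high, these calls are not independent of that filter. Without Lgr5-Cdx2-Apc replicate 2 the difference from control was about as large at 3.82 ± 0.85, but none of these differences passed (adjusted p = 0.053 against control), and the call against Lgr5-Apc held in 19 of 23 alternative fits. The difference between Lgr5-Apc and control was 0.62 ± 0.54 (adjusted p = 0.67).

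Lgr6 was high in libraries with high squamous, hair follicle and skeletal muscle scores. Lgr5-Apc replicate 3 scored 8.89 for squamous markers with 0.966 FPKM of Lgr6, and control replicate 1 scored 7.04 with 0.687 FPKM, while Lgr5-Cdx2-Apc replicate 1 scored 7.60 with 16.3 FPKM. With the squamous score as a covariate, Lgr6 was higher by 3.15 ± 0.44 in Lgr5-Cdx2-Apc than in control (adjusted p = 0.00663). With the columnar score as a covariate the difference was 2.06 ± 0.77 (adjusted p = 0.499), in a fit where 0.369% of all genes passed. The hair follicle score was 4.02 and 2.91 in Lgr5-Cdx2-Apc, 1.56 and 1.19 in Lgr5-Apc replicates 2 and 3 and at most 0.97 in the other 8 libraries. These 4 libraries were also the 4 with the most Lgr6, and the 3 with the highest skeletal muscle scores were the 3 with the most. The part of hair follicle and skeletal muscle in the Lgr6 difference was not tested. The genes nearest to Lgr6 in pattern were Skint4 (r = 0.998), Skint10 (r = 0.995) and Skint6 (r = 0.994, n = 12 libraries each), members of a family of immunoglobulin-like proteins of skin and thymus. These 3 were listed at 0 in at least 1 library and reached 16.3, 26.7 and 43.9 FPKM at most.

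**Figure D1:**
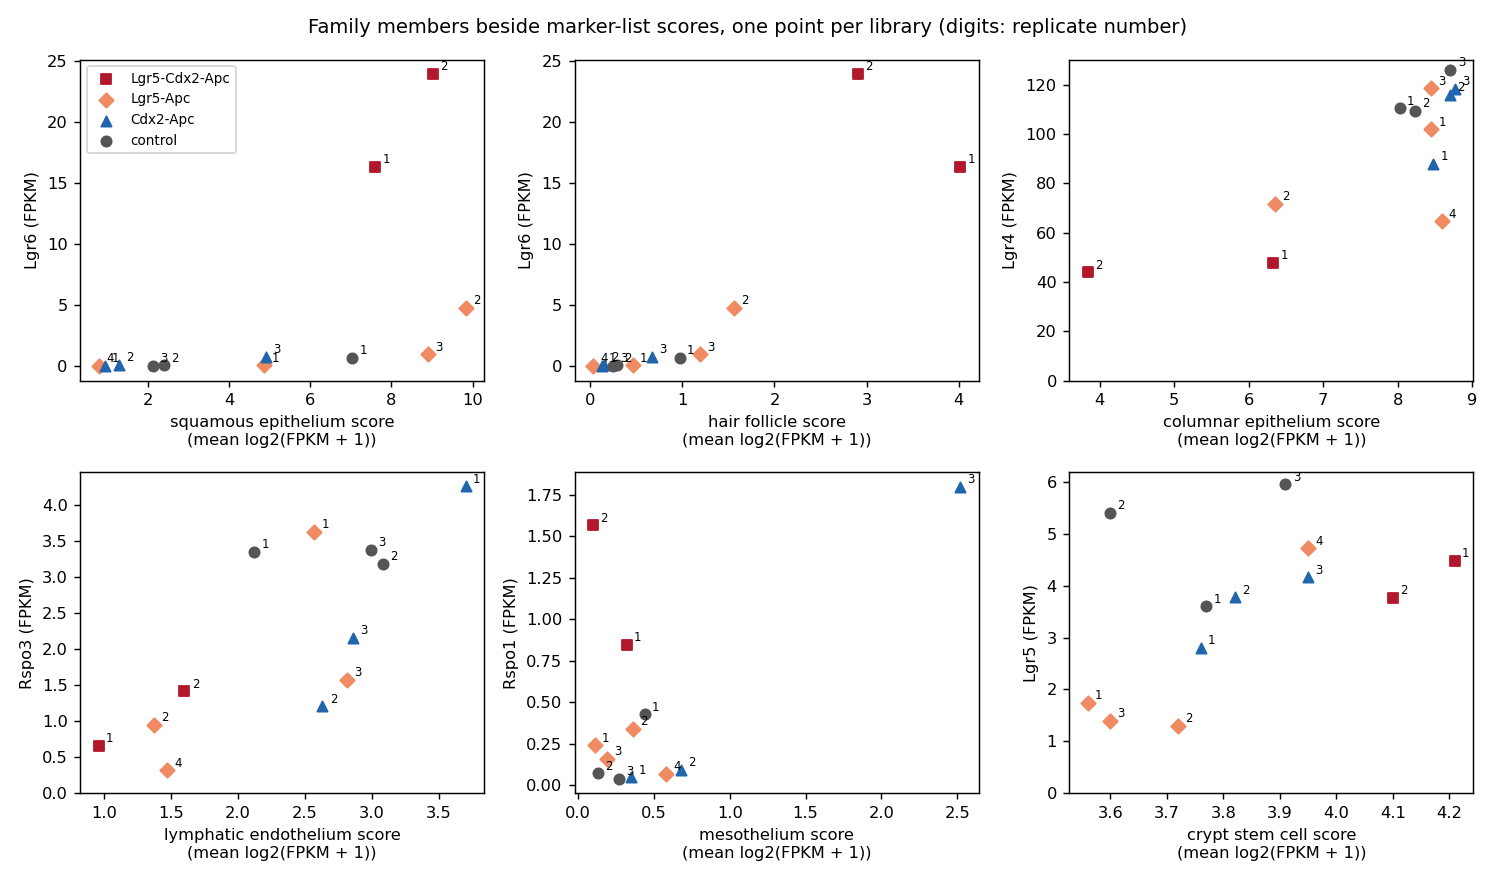
FPKM of a family member (vertical axis) against a marker-list score, the mean log2(FPKM + 1) of the list (horizontal axis), with 1 point per library and its replicate number. Lgr6 is 16.3 and 23.9 FPKM in the Lgr5-Cdx2-Apc libraries, and 0.966 and 0.687 FPKM in Lgr5-Apc replicate 3 and control replicate 1, which also score high for squamous markers; Rspo1 is 1.80 FPKM in Cdx2-Apc replicate 3, the library with the highest mesothelium score.

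The sequences upstream of Lgr6 and Rspo4 are shown because these were the members that rose together in the Lgr5-Cdx2-Apc libraries, a pair chosen after their values were seen. Both are the 250 bases before the annotated start in RefSeq on GRCm38.p6, printed 5′ to 3′ on the gene's strand with CpG dinucleotides in capitals. RefSeq promoter entries were matched for 4 of the 7 members, these and Lgr4 and Rspo1. The Lgr6 window is chr1:135105277-135105526 on the minus strand, and the Rspo4 window is chr2:151842677-151842926 on the plus strand.
Lgr6: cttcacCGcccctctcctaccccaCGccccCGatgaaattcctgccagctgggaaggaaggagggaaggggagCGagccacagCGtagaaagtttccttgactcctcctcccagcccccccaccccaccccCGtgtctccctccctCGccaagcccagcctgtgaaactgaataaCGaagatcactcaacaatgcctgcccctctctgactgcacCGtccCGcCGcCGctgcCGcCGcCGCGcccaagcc
Rspo4: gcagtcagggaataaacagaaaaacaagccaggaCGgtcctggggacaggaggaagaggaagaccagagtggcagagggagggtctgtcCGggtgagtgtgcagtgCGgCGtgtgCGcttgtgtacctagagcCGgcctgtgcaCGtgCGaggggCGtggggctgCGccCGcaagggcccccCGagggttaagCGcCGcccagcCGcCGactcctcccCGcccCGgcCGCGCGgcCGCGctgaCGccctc
The Lgr6 window held 16 CpG dinucleotides at 65.2% G or C, and the Rspo4 window 24 at 69.6%. Over 32851 promoter windows of the same length the median was 6, with 25.4% holding at least 16 and 12% at least 24. Short motifs were searched on both strands in the windows of all 4 matched members, namely CTTTGA of TCF and LEF factors, TGANTCA of AP-1, TTTATNG of CDX factors and AACNGGTT of grainyhead factors. None was found, against 13.83%, 6.75%, 9.81% and 1.79% of all windows in the order named, which says only that these letters are not in these bases.

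In the Lgr5-Cdx2-Apc libraries Lgr6 was a sizeable part of the receptor family. Lgr6 made up 23.9% and 33.5% of the summed Lgr receptor FPKM there, 0.0724%, 6.16%, 0.798% and 0.0577% in Lgr5-Apc, and at most 0.608% in Cdx2-Apc and 0.598% in control. Lgr4 made up 69.6% and 61.3% in Lgr5-Cdx2-Apc and 92.2% to 98.3% in the other 10 libraries. The Lgr receptor sum was 70.0 ± 2.20 FPKM in Lgr5-Cdx2-Apc (SD, n = 2), 93.1 ± 23.7 FPKM in Lgr5-Apc (SD, n = 4), 111.3 ± 17.8 FPKM in Cdx2-Apc (SD, n = 3) and 120.6 ± 10.01 FPKM in control (SD, n = 3). Carriers of the Lgr5 driver, meaning Lgr5-Cdx2-Apc and Lgr5-Apc together, had a mean Lgr6 share of 10.7 ± 14.4% (SD, n = 6), and the Cdx2-Apc and control libraries together 0.236 ± 0.286% (SD, n = 6). That difference gave p = 0.0498 in a two-sided exact permutation test over 924 splits and 0.12 after adjustment over 3 quantities, and the carriers and non-carriers overlapped. The Cdx2-Apc libraries, which differ in sex, are among the non-carriers. Driver and sex are therefore not separated in any comparison of carriers with non-carriers.

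**Figure D2:**
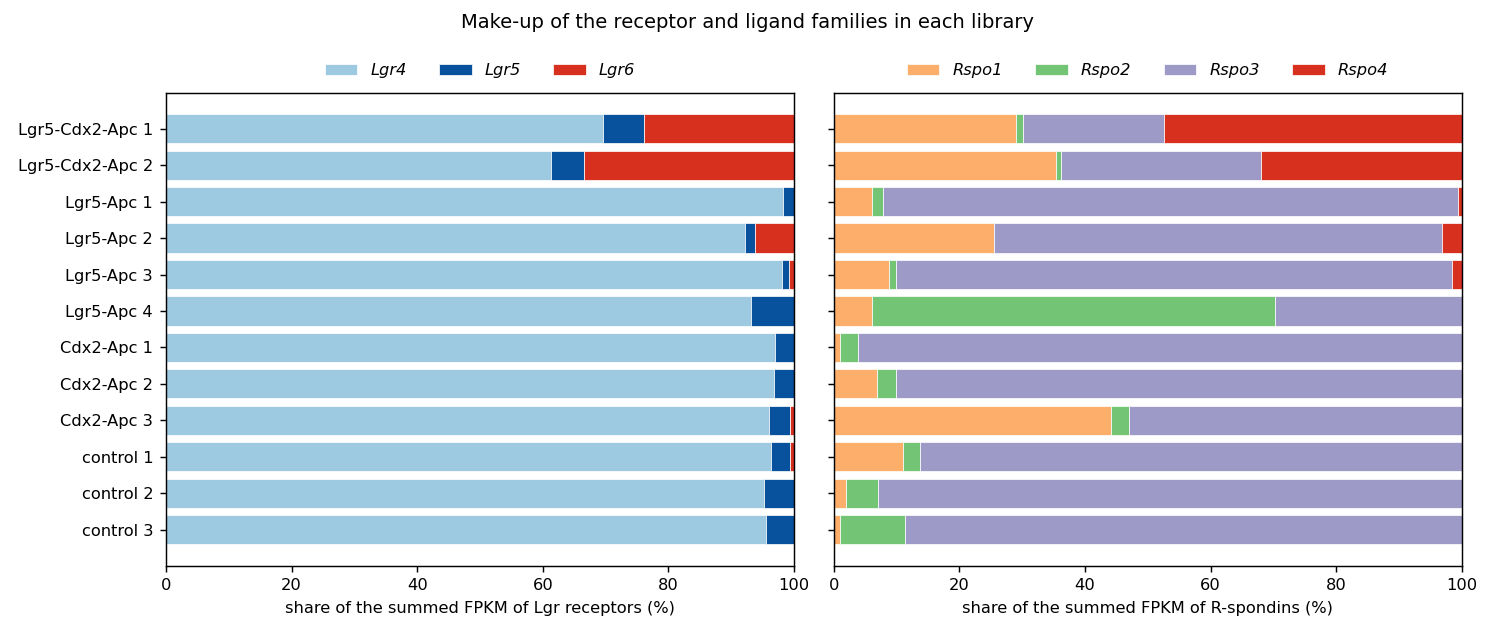
Share of each gene in the summed FPKM of its family (horizontal axes, %), 1 bar per library with Lgr5-Cdx2-Apc at the top and control at the bottom. Lgr6 takes 23.9% and 33.5% of the receptor sum in Lgr5-Cdx2-Apc, and Rspo4 takes 47.4% and 31.98% of the R-spondin sum there.

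Rspo3, the main R-spondin of the intestinal stroma, was the largest part of the R-spondin sum in 9 of 12 libraries. Its gene spans 29452416 to 29535867 of chromosome 10 on the minus strand (ENSMUSG00000019880.10). Rspo3 was 0.658 and 1.41 FPKM in Lgr5-Cdx2-Apc, 3.63, 0.950, 1.57 and 0.320 FPKM in Lgr5-Apc, 4.25, 1.21 and 2.16 FPKM in Cdx2-Apc, and 3.35, 3.18 and 3.38 FPKM in control. The control libraries lay close together, both Lgr5-Cdx2-Apc libraries were below them, and Lgr5-Apc and Cdx2-Apc spread on either side. Rspo3 averaged 1.03 ± 0.533 FPKM in Lgr5-Cdx2-Apc (SD, n = 2) and 3.30 ± 0.104 FPKM in control (SD, n = 3), a log2 difference of -1.11 ± 0.49 that did not pass (SE; limma adjusted p = 0.128). It passed in 2 of 24 alternative fits, the one on these groups alone (adjusted p = 0.0288) and the one with library quality weights (adjusted p = 0.0459). The difference from control was -0.87 ± 0.41 in Lgr5-Apc (adjusted p = 0.467) and -0.37 ± 0.44 in Cdx2-Apc (adjusted p = 1). Markers of lymphatic endothelium, a known source of Rspo3 in the intestine, scored 0.96 and 1.60 in Lgr5-Cdx2-Apc, 1.37 to 2.81 in Lgr5-Apc, 2.63 to 3.70 in Cdx2-Apc and 2.12 to 3.08 in control. Fibroblast markers scored 4.11 and 4.59 in Lgr5-Cdx2-Apc, 2.68 to 4.56 in Lgr5-Apc, 3.81 to 4.73 in Cdx2-Apc and 3.32 to 4.65 in control. The lowest was Lgr5-Apc replicate 4, which also had the lowest Rspo3. Control replicate 1 scored 3.32 with 3.35 FPKM of Rspo3, and Lgr5-Cdx2-Apc replicate 2 scored 4.59 with 1.41 FPKM. Smooth muscle markers scored 7.63 to 8.12 in the control libraries, Lgr5-Apc replicate 1 and Cdx2-Apc replicate 1, which had the most Rspo3. In the other libraries they scored 7.02 or less. The part of these cells in the Rspo3 values was not tested. The genes nearest to Rspo3 in pattern were Rassf2 (r = 0.983), Rhoj, a small GTPase of endothelium (r = 0.973), and Lix1l (r = 0.971, n = 12 libraries each).

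Rspo1, known for its role in ovary development, was low in most libraries. It lies on chromosome 4, from 124986430 to 125009099 on the plus strand (ENSMUSG00000028871.7). Rspo1 was 0.848 and 1.57 FPKM in Lgr5-Cdx2-Apc, 0.240, 0.340, 0.156 and 0.0664 FPKM in Lgr5-Apc, 0.0454, 0.0920 and 1.80 FPKM in Cdx2-Apc, and 0.426, 0.0701 and 0.0377 FPKM in control. The highest single value was Cdx2-Apc replicate 3, and both Lgr5-Cdx2-Apc libraries lay above every library of Lgr5-Apc and control. That order is a description, with no share of all genes beside it. In Cdx2-Apc replicate 3 all 5 mesothelium markers were at or above 1 FPKM, with 7.40 FPKM of Msln and 5.49 FPKM of Upk3b, surface proteins of the serosal lining, against at most 0.957 and 0.549 FPKM of them in the other 11 libraries. The mesothelium score was 2.52 there, 0.32 and 0.10 in Lgr5-Cdx2-Apc and at most 0.68 in the remaining 9, and its part in the Rspo1 value was not tested. Rspo1 differed by 0.90 ± 0.39 between Lgr5-Cdx2-Apc and control (SE, limma adjusted p = 0.12), which did not pass. Without Cdx2-Apc replicate 3, a library of neither group, the limma adjusted p was 0.0355. Rspo1 reached 1 FPKM only in that library and Lgr5-Cdx2-Apc replicate 2. The fits without a library kept the genes chosen on all 12, so Rspo1 would not meet the filter there. That value therefore gives no support. Against Lgr5-Apc the difference was 0.86 ± 0.37 (adjusted p = 0.15). The genes nearest to Rspo1 in pattern were Abcb1b, a drug efflux pump (r = 0.875), Ino80, a chromatin remodeller (r = 0.862), and Nepro (r = 0.820, n = 12 libraries each).

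Rspo2, known from limb and lung development, stayed under 1 FPKM in all 12 libraries and has no test. Its gene spans 43020794 to 43170826 of chromosome 15 on the minus strand (ENSMUSG00000051920.7). Rspo2 was 0.0319 and 0.0315 FPKM in Lgr5-Cdx2-Apc, 0.0714, 0, 0.0213 and 0.688 FPKM in Lgr5-Apc, 0.130, 0.0422 and 0.113 FPKM in Cdx2-Apc, and 0.109, 0.170 and 0.395 FPKM in control. The highest value was Lgr5-Apc replicate 4, where Rspo2 took 64.0% of an R-spondin sum of 1.07 FPKM.

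Rspo4, whose loss in humans leaves fingers and toes without nails, was found at 1 FPKM or more in the Lgr5-Cdx2-Apc libraries alone. Its gene spans 151842927 to 151874668 of chromosome 2 on the plus strand (ENSMUSG00000032852.3). Rspo4 was 1.39 and 1.42 FPKM in Lgr5-Cdx2-Apc, 0.0247, 0.0412, 0.0282 and 0 FPKM in Lgr5-Apc, and listed at 0 in all 3 Cdx2-Apc and all 3 control libraries. It passed the test against control (limma adjusted p = 0.00145), against Lgr5-Apc (adjusted p = 0.00124) and against Cdx2-Apc (adjusted p = 0.00126). No fold is given against groups listed at 0, and since the filter admitted Rspo4 through the libraries where it was high, these calls are not independent of that filter. With the columnar score as a covariate it did not pass against any of the 3 groups, though the difference from control was about as large, 1.23 ± 0.26 on the log2(FPKM + 1) scale (adjusted p = 0.13). With that covariate 0.369% of all genes passed against control, 0.478% against Lgr5-Apc and 0.351% against Cdx2-Apc. The genes nearest to Rspo4 in pattern were Car6, a secreted carbonic anhydrase (r = 0.988), Ubash3b (r = 0.986) and Krtap19-3, a keratin-associated protein of hair (r = 0.983, n = 12 libraries each). Rspo4 and Lgr6 had r = 0.91 over the 12 libraries, and Rspo4 and Lgr4 r = -0.83.

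Among the ligands, the shares differed between libraries while the sums of the groups overlapped. Rspo3 made up 22.5% and 31.9% of the summed R-spondin FPKM in Lgr5-Cdx2-Apc, 91.5%, 71.4%, 88.4% and 29.8% in Lgr5-Apc, 96.1%, 90.0% and 53.0% in Cdx2-Apc, and 86.2%, 93.0% and 88.6% in control. The low shares outside Lgr5-Cdx2-Apc were Lgr5-Apc replicate 4, where Rspo2 was the larger part, and Cdx2-Apc replicate 3, where Rspo1 took 44.2%. The R-spondin sum was 3.67 ± 1.06 FPKM in Lgr5-Cdx2-Apc (SD, n = 2), 2.04 ± 1.32 FPKM in Lgr5-Apc (SD, n = 4), 3.28 ± 1.69 FPKM in Cdx2-Apc (SD, n = 3) and 3.70 ± 0.247 FPKM in control (SD, n = 3). Between carriers and non-carriers of the Lgr5 driver the Rspo3 share was 55.9 ± 31.4% and 84.5 ± 15.8% (SD, n = 6 each; two-sided exact permutation p = 0.0801, adjusted p = 0.12). The R-spondin sum was 3.17 ± 1.92% of the Lgr receptor sum in carriers and 3.09 ± 1.20% in non-carriers (SD, n = 6 each; exact permutation p = 0.937), where the smallest p that 924 splits allow is 0.0022.

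Set against control, some members passed in rectum with both drivers and none in either single-driver group. In Lgr5-Cdx2-Apc 3 of 6 tested members passed, 2 of them higher (Lgr6 and Rspo4) and 1 lower (Lgr4). Lgr6 and Rspo4 met the filter only through the Lgr5-Cdx2-Apc libraries, where they were high, so in every comparison that includes this group their calls are a description and the count gives no support. Of all 17360 genes tested 19.1% passed, 10.5% higher and 8.55% lower (limma, Benjamini-Hochberg adjusted p below 0.05). In Lgr5-Apc 0 of 6 members passed, with a background of 0.0115% of genes, and 1 member, Lgr5, had an unadjusted p under 0.05. So had 1881 of all 17360 genes, so this is no rare value. In Cdx2-Apc 0 of 6 passed, with a background of 0.0403%, and none had an unadjusted p under 0.05, as 285 of the 17360 genes had. Between the groups with the Apc allele, Lgr5-Cdx2-Apc had the same 3 members called against Lgr5-Apc, with a background of 8.99% (5.22% higher and 3.77% lower), and against Cdx2-Apc, with a background of 23.8% (12.1% higher and 11.7% lower). Lgr5-Apc against Cdx2-Apc had 0 of 6 called, with a background of 0.0346% and no member at an unadjusted p under 0.05. There 1800 of the 17360 genes were under it. These comparisons share libraries and are not independent of one another.

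**Figure D3:**
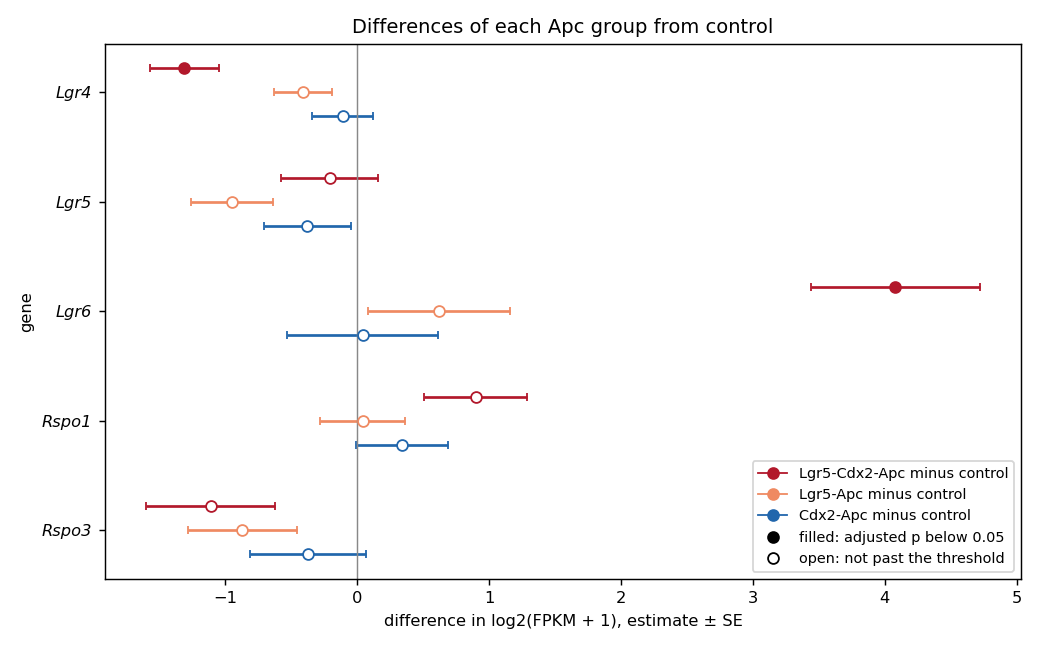
Difference in log2(FPKM + 1) from control, estimate ± SE (horizontal axis), for 5 members in Lgr5-Cdx2-Apc, Lgr5-Apc and Cdx2-Apc. Filled points passed at an adjusted p below 0.05. Lgr6 at 4.08 and Lgr4 at -1.31 in Lgr5-Cdx2-Apc are the filled points; Rspo2 was not tested and Rspo4 is left out because its controls are listed at 0.

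The departure from additivity asked whether Lgr5-Cdx2-Apc differed from control by more than the single-driver differences added together. Rspo4 was the 1 member of 6 that passed, with a departure of 1.23 ± 0.20 on the log2(FPKM + 1) scale (SE; limma adjusted p = 0.0168), where 1.58% of all genes passed. It met the filter only through the Lgr5-Cdx2-Apc libraries, so this departure is not independent of the filter. It was lost in 5 of 22 alternative fits, among them the fit with the replicate number as a block (adjusted p = 0.0968) and those without Cdx2-Apc replicate 2 or 3 (adjusted p = 0.0586 and 0.0585). Lgr6 departed by 3.42 ± 0.83 without passing (adjusted p = 0.076), and it passed in 3 of 22 alternative fits, among them the one without Lgr5-Apc replicate 2 (3.96, adjusted p = 0.00272). The values for Lgr5 at 1.12 ± 0.48 (adjusted p = 0.222) and Lgr4 at -0.80 ± 0.34 (adjusted p = 0.216) did not pass. For carriers of the Lgr5 driver against non-carriers, with each group's mean given equal weight, 3 of 6 members passed and 22.1% of all genes did. Lgr6 was higher by 2.33 ± 0.42 (adjusted p = 0.00893) and Lgr4 lower, at -0.80 ± 0.17 (adjusted p = 0.0139), while Rspo4 also passed (adjusted p = 0.00559), and all 3 overlapped between carriers and non-carriers. The filter limit on Lgr6 and Rspo4 holds here too. Sex is not separated from genotype in this contrast or in the departure from additivity, since both draw on Cdx2-Apc. All 5 sex-linked genes tested passed in each. None of the 3 members passed with the squamous or the columnar covariate, where the differences were -0.93 and -0.58 for Lgr4, 1.48 and 1.10 for Lgr6 and 0.63 under either for Rspo4. In these fits 1.43% and 0.121% of all genes passed. Rspo3 at -0.80 ± 0.32 did not pass (adjusted p = 0.0906).

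Among the partners through which the family acts, the share that passed was near that of all genes. Of 24 receptor partners, 21 were tested, and in Lgr5-Cdx2-Apc against control 4 were higher and 1 lower, 23.8% against 19.1% of all genes, with a median log2 difference of 0.49 against 0.07 over all genes. Tnfrsf19 (Troy), a receptor of the tumour necrosis factor family that interacts with Lgr5, was 56.0 and 57.6 FPKM in Lgr5-Cdx2-Apc, 3.07, 15.3, 4.57 and 1.86 FPKM in Lgr5-Apc, 1.64, 0.744 and 3.62 FPKM in Cdx2-Apc, and 5.56, 2.15 and 1.57 FPKM in control. Like Lgr6, it was highest in Lgr5-Cdx2-Apc and next in Lgr5-Apc replicate 2, and it rose by 3.94 ± 0.68 against control (SE; limma adjusted p = 0.00705). Dvl1, a signal relay below Frizzled, rose by 1.08 ± 0.28 (adjusted p = 0.0272), the Wnt receptor Fzd3 by 1.67 ± 0.48 (adjusted p = 0.038) and the co-receptor Lrp5 by 0.68 ± 0.21 (adjusted p = 0.0459). Gpc3, a cell-surface glypican, fell by 1.88 ± 0.49 (adjusted p = 0.0281). Of 24 alternative fits the call held in 22 for Tnfrsf19, 17 for Dvl1, 17 for Gpc3, 11 for Fzd3 and 10 for Lrp5, and none of the 5 passed without Lgr5-Cdx2-Apc replicate 2 or with the columnar covariate. Without that library the differences were 3.92 for Tnfrsf19, 1.21 for Dvl1, 1.60 for Fzd3, 0.67 for Lrp5 and -2.03 for Gpc3, about as large as with it. With the columnar covariate they were 2.19, 0.75, 0.86, 0.50 and -3.22 in the same order, and 0.369% of all genes passed in that fit. The ligases that the bound receptors draw away did not pass: Znrf3 was 13.3 and 15.9 FPKM in Lgr5-Cdx2-Apc and 6.98 to 10.4 FPKM in control (log2 difference of 0.70 ± 0.26, adjusted p = 0.0798), and Rnf43 was 11.1 and 9.57 FPKM in Lgr5-Cdx2-Apc and 9.57 to 13.04 FPKM in control (-0.12 ± 0.24, adjusted p = 0.746). Against Lgr5-Apc 1 partner of 21 passed (4.76%, against 8.99% of all genes), Tnfrsf19, higher by 3.34 ± 0.64 (adjusted p = 0.0152), a call lost without either Lgr5-Cdx2-Apc library. Against Cdx2-Apc 5 were higher and 1 lower (28.6%, against 23.8% of all genes), among them Znrf3 at 0.81 ± 0.26 (adjusted p = 0.0458) and the co-receptor Lrp6 at -0.54 ± 0.17 (adjusted p = 0.0487), calls that held in 11 and 7 of 24 alternative fits. In Lgr5-Apc and Cdx2-Apc against control no partner passed, and the smallest p belonged to Lrp5 at 0.54 ± 0.17 in Lgr5-Apc (adjusted p = 0.41) and to Gpc3 at -0.78 ± 0.44 in Cdx2-Apc (adjusted p = 1).

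**Figure D4:**
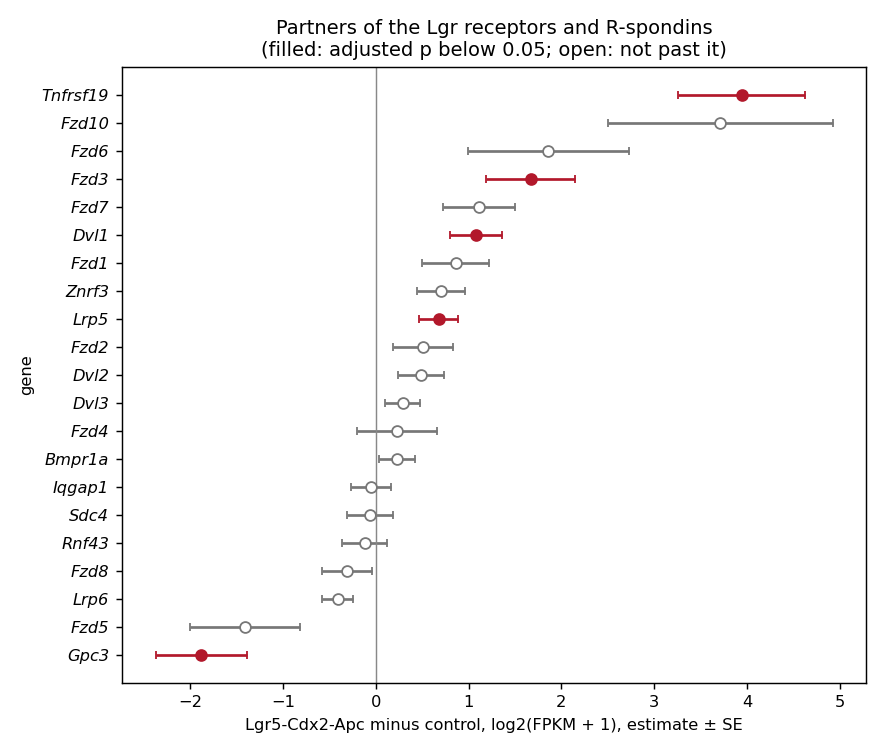
Difference in log2(FPKM + 1) between Lgr5-Cdx2-Apc and control, estimate ± SE (horizontal axis), for the 21 tested partners of the Lgr receptors and R-spondins. Filled points passed at an adjusted p below 0.05; Tnfrsf19 stands highest at 3.94 and Gpc3 lowest at -1.88.

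Of 20 genes listed here as Wnt targets, 18 were tested. In Lgr5-Cdx2-Apc against control 5 were higher and 1 lower, 33.3% against 19.1% of all genes. Their median log2 difference was 0.56 against 0.07 over all genes. Tnfrsf19, Znrf3 and Rnf43 stand on this list and on that of the partners. Axin2, Tnfrsf19, Ephb2, Ascl2 and Sox9 stand on it and among the crypt stem cell markers. All called crypt stem cell markers are thus counted here again. Besides Tnfrsf19, the transcription factor Tcf7 rose by 1.23 ± 0.23 (SE; limma adjusted p = 0.00923), the secreted inhibitor Wif1 by 1.26 ± 0.34 (adjusted p = 0.0297), the membrane inhibitor Apcdd1 by 3.30 ± 0.97 (adjusted p = 0.0398) and the feedback gene Axin2 by 0.88 ± 0.27 (adjusted p = 0.0468). Ephb2, a receptor that sorts cells along the crypt, fell by 1.80 ± 0.47 (adjusted p = 0.0276). These calls held in 22 (Tcf7), 18 (Ephb2), 11 (Apcdd1) and 8 (Axin2) of 24 alternative fits and in 17 of 23 for Wif1, and none of the 18 passed without Lgr5-Cdx2-Apc replicate 2 or with the columnar covariate. Without that library the differences were 1.11 for Tcf7, 1.56 for Wif1, 3.43 for Apcdd1, 1.12 for Axin2 and -1.43 for Ephb2, and with the columnar covariate 0.82, 2.02, 0.93, 1.07 and -0.16 in the same order. In the covariate fit 0.369% of all genes passed. Axin2 was 20.5 and 14.6 FPKM in Lgr5-Cdx2-Apc, 5.86 to 11.7 FPKM in Lgr5-Apc, 12.1 to 12.7 FPKM in Cdx2-Apc and 6.98 to 10.8 FPKM in control. Apcdd1 was 29.9 and 25.0 FPKM in Lgr5-Cdx2-Apc but also 22.9 FPKM in the squamous-rich Lgr5-Apc replicate 2, and 0.439 to 5.32 FPKM in the other 9 libraries. Ephb2 was 3.71 and 1.81 FPKM in Lgr5-Cdx2-Apc and 5.20 FPKM in that replicate, against 8.49 to 22.6 FPKM in the other 9, and these 3 libraries also had the lowest columnar and the highest skeletal muscle scores. The part of tissue make-up in these differences was not tested. In Lgr5-Apc and Cdx2-Apc against control 0 of 18 passed, with medians of 0.02 and -0.09; the smallest p were those of Dkk3 at -0.51 ± 0.26 in Lgr5-Apc (adjusted p = 0.483) and Axin2 at 0.43 ± 0.24 in Cdx2-Apc (adjusted p = 1).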

How the data were processed

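RNA of mouse rectum was read from 12 libraries in 4 groups. The deposited values are FPKM, made by the authors with STAR, Cufflinks and Cuffdiff on mm10, per the submitters' processing notes; versions and the gene annotation are not given in the sources used here. The header names no unit, and FPKM was inferred from the tools and the values. Libraries were made with a directional kit, per the labels' protocols. Of 27831 lines, 25 with symbols turned into dates were kept unnamed, and repeated symbols were reduced to the line with the highest mean.

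A linear model with 1 term per group was fitted to log2(FPKM + 1) of the 17360 genes that reached 1 FPKM in 2 or more libraries (limma 3.58.1 with trend, R 4.3.3). Each contrast was adjusted over all of them (Benjamini-Hochberg, called below 0.05, two-sided), and the fit was tested on simulated data. Whole reads could not be recovered, so no counting error is given, and with 2 to 4 libraries a group the precision is limited. Where all libraries of a group are said to lie above or below others, the share of all genes that do so is not given. Such statements are descriptions. Positions are from GENCODE M21. The genes, lists, tests and added alternatives were chosen with earlier results of these data known. Named were all 7 members, the called members of each list (up to 6, or the smallest p), each list's first markers and the 3 genes with the highest Pearson r, skipping unnamed models, small RNAs and receptor segments. Alternatives were other pseudocounts, filters, scalings, weights, a replicate block, single libraries left out and, chosen after seeing the data, squamous-rich libraries left out and squamous or columnar covariates.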

Additional observations from a re-analysis of the deposited data

Results flagged for a closer look

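Within Lgr5-Apc, 10 groups of 4 values were screened for a library far from the others, and 4 were found, where chance gives about 1 in 20. Lgr5 was 4.72 FPKM in replicate 4, with the gap to its nearest neighbour taking 0.87 of the group's range. Rspo2 was 0.688 FPKM in the same library, with a gap of 0.896 of the range. Lgr6 took 6.16% of the Lgr receptor sum in replicate 2, with a gap of 0.879. The R-spondin sum was 3.82% of the Lgr receptor sum in replicate 1, with a gap of 0.899. Lgr5-Apc replicate 4 also had the lowest squamous score, 0.79, and 150.8 FPKM of Cdx2, against at most 30.4 FPKM in the other 11 libraries, while replicate 2 had the highest squamous score, 9.83; their part in these values was not tested. Rspo4 differed between groups by a departure from additivity of 1.23 on the log2 scale, in the same limma fit; it met the filter only through the Lgr5-Cdx2-Apc libraries, where it was high, so this is a description.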

How the results depend on the processing

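Of the named differences of single members, 614 values under alternatives kept their direction and side of the threshold, 46 lost the call, 13 gained it and 2 reversed; for partners and Wnt targets these numbers were 328, 121, 3 and 3. No alternative called a member in either single-driver group against control or between these groups (0 to 0 without each library). The main counts of called members were 3 of 6 in the 3 Lgr5-Cdx2-Apc comparisons and for carriers of the Lgr5 driver, and 1 for the departure from additivity. For single fits, a count of 2 or 4 in place of 3 is not listed below. The Lgr4 call against Lgr5-Apc, for example, held in 6 of 24 alternative fits. Against control the count was 1 with a filter of 1 FPKM in 6 libraries (Lgr6, Rspo1 and Rspo4 are then not tested), 0 with the columnar covariate, and 1 to 4 without each library. The value of 4 came without Cdx2-Apc replicate 3, where Rspo1 would not meet the main filter. Against Lgr5-Apc it was 1 with a pseudocount of 0.1 FPKM, 0 with the 6-library filter, 1 on the compared groups alone, 0 with the columnar covariate, and 1 to 4 without each library. Against Cdx2-Apc it was 1 with the 6-library filter, 0 with the columnar covariate, and 1 to 4 without each library. In all 3 the value of 1 came without Lgr5-Cdx2-Apc replicate 2, which leaves 1 library in that arm. The departure from additivity gave 0 with a pseudocount of 0.1, with the 6-library filter, with the replicate block and with the columnar covariate, 4 with quality weights, 2 without the squamous-rich libraries, and 0 to 2 without each library (0 without Cdx2-Apc replicate 2 or 3, 2 without Lgr5-Apc replicate 2). Carriers gave 1 with the 6-library filter, 5 with quality weights, 0 with either covariate, and 2 to 4 without each library. Reversed were the Lgr5 difference of Lgr5-Cdx2-Apc from control, 0.27 with the squamous and 0.50 with the columnar covariate, those of Rnf43 (0.05 and 0.34) and, with the columnar covariate, Znrf3 (-0.01), and the ratio of the R-spondin to the Lgr sum in carriers minus non-carriers (0.0767 percentage points), -0.376 with medians and -0.527 to 0.434 without each library (-0.144, -0.527, -0.0537 and -0.317 without Lgr5-Cdx2-Apc replicate 1 or 2, Lgr5-Apc replicate 1 or Cdx2-Apc replicate 2). The Lgr6 share differed by 5.95 to 12.6 percentage points without each library (adjusted p of 0.0325 without Lgr5-Apc replicate 1 or 4), and the Rspo3 share by -35.7 to -21.9. In Lgr5-Cdx2-Apc against control, called partners numbered 0 to 12 and called Wnt targets 0 to 10 over the alternatives. The cause was not tested. With the columnar covariate few genes of any kind passed, 0.369% against control, 0.478% against Lgr5-Apc and 0.351% against Cdx2-Apc in the Lgr5-Cdx2-Apc comparisons. Replicate numbers did not pair the libraries: 5 of 15 same-number pairs had a correlation of deviations over 0.1 (median -0.02, against 0.01 for 38 other pairs). With the block the additivity count fell to 0, and every other count of called members stayed at 0 or lay between 2 and 4. Depth in reads is unknown, so values near 0 have no stated error.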
